A study of Mus musculus with 12 samples.

Results

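The subject is the set of H3K9me3 regions that also carried H3K27ac in mouse neural progenitors, with and without the H3K9 methyltransferase SETDB1. Members were chosen by measured values. They are the rows of the authors' H3K9me3 table on chromosomes 1 to 19 that overlapped, by 1 bp or more, an H3K27ac peak in at least 1 of 6 libraries. The rule took 1006 of 47949 listed autosomal regions, which is 2.1% of them, and the whole table holds 50654. The groups were Setdb1 knockouts (KO, labelled Nestin-KO in the C57BL/6 strain, with no Cre line or promoter given beyond that name) and wild types (WT) of the same strain. Each mark was measured by native ChIP-seq on 100000 nuclei per library from E15.5 neurosphere cultures of the ganglionic eminence, with 3 animals per genotype. No animal gave both marks, so overlap of marks means the same place in different animals, never the same nucleosome. All 3 KO animals of the H3K9me3 set were male, while WT had 2 females and 1 male, so sex and genotype cannot be told apart for that mark. The H3K9me3 titles share a number between replicate 1 of both genotypes. KO replicates 2 and 3 share a number that no WT title of that mark has. WT replicates 2 and 3 share another, which no KO title of that mark has. Outside replicate 1, title number and genotype therefore cannot be told apart for H3K9me3 either. For H3K27ac each genotype had 1 female (replicate 1) and 2 males. The H3K27ac titles share a number between replicate 1 of both genotypes and another between replicates 2 and 3 of both, whose meaning the labels do not state, so title number and sex coincide.

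H3K9me3 is placed by SETDB1 and related enzymes and is a mark of silenced chromatin, held over endogenous retroviruses, satellite repeats, zinc finger gene clusters and the silent copies of imprinted genes. SETDB1 is brought to many of these sites by KRAB zinc finger proteins through TRIM28. H3K27ac is placed at active promoters and enhancers, and these marks are normally kept on separate stretches of DNA. Where bulk chromatin shows both at the same place, different cells, different parental copies or different copies of a repeat may each carry a single mark, and ChIP of pooled nuclei does not separate these.

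Among the members, 34 promoter windows of 29 genes lay under both marks, counting windows from 250 bases before to 50 bases after the start site. A window counted if it overlapped a member and also an H3K27ac peak, and that peak could lie outside the member. At Sspn the window had peaks in 2 KO and 3 WT libraries, but the member itself in 1 KO and 0 WT libraries. Among those genes, 6 have names of the Zfp zinc finger type, a family whose KRAB members guide SETDB1 to DNA. The windows below are some of the 31 that lay in a region listed as lower in KO, and each held an H3K27ac peak itself. They were picked after their values were seen. All of them hold CCAAT, which stood in 50% of the 34 windows and was absent from the Zfp445 window. Sequences are from RefSeq (GRCm38.p6), 5′ to 3′ on the gene's strand. Capitals mark CCAAT, the letters bound by the factor NF-Y, or its reverse complement. Zfp873 lies at chr10:82047873-82048172 (plus strand), BC024063 at chr10:82083070-82083369 (plus), Zfp97 at chr17:17121133-17121432 (plus), Zfp951 at chr5:104859978-104860277 (minus) and Zfp872 at chr9:22187916-22188215 (plus).
Zfp873: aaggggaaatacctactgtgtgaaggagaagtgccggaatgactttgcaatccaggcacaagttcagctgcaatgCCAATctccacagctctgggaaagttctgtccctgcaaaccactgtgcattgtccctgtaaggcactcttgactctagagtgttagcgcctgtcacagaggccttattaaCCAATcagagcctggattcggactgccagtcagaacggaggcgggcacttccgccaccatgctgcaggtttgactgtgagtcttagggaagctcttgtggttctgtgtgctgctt
BC024063: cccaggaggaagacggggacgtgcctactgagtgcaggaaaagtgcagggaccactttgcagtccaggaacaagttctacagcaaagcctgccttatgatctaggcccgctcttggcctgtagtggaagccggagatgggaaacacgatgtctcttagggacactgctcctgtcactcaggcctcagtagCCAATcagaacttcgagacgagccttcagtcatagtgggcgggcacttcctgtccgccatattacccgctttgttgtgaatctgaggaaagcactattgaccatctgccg
Zfp97: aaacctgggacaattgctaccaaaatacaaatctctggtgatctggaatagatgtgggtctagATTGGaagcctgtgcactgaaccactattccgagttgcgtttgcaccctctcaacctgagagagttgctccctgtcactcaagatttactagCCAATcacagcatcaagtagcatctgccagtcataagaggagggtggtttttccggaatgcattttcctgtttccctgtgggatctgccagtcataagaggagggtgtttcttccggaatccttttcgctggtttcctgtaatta
Zfp951: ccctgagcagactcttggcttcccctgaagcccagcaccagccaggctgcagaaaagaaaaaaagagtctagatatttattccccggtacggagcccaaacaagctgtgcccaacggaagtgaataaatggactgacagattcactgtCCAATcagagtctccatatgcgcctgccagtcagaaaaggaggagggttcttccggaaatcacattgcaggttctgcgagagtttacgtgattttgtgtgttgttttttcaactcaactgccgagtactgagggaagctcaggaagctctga
Zfp872: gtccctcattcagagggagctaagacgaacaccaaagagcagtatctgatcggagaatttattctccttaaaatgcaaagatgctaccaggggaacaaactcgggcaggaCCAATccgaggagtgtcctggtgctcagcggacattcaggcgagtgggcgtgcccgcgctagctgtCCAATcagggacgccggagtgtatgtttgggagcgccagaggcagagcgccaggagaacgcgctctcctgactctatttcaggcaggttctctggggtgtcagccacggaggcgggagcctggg

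CCAAT was found in 5 of the 6 Zfp genes with a window under both marks. It stood in 50% of the 34 windows, in 45.7% of the 875 windows that lay in any listed H3K9me3 region, in 47.4% of 399 windows of all Zfp genes and in 37.3% of all 31396 autosomal windows. The GC box GGGCGG stood in 32.4% of the 34, against 36.0% of all windows. It stood in 11.4% of windows in any listed H3K9me3 region and in 63.4% of windows under any H3K27ac peak. The windows under both marks had a median of 10 CpG, against 22 for windows under any H3K27ac peak and 3 for windows in any listed H3K9me3 region. TGCCGC, the letters bound by the imprinting factor ZFP57, was in 0 of the 34 windows, against 4.91% of windows in any listed H3K9me3 region and 11.6% of all. CACGTG (E-box) and TTCCCGC (E2F family) were each in 1. Both strands were searched, matches of different motifs may overlap, and a match is a description of letters only.

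H3K9me3 at these promoters was as follows, in normalised reads per region in the order the table lists them. Zfp873 had 0, 9.59 and 26.9 in KO, against 53.2, 51.7 and 34.1 in WT, with an H3K27ac peak in all 6 libraries. The 2 groups did not overlap, but the difference missed the threshold in limma (adjusted p = 0.0908). BC024063, a neighbouring gene on the same chromosome, had 30.6, 20.5 and 48.8 in KO, against 90.4, 123.8 and 118.2 in WT, also with a peak in all 6 libraries. Its level fell by 1.78 ± 0.37 (SE) on the log2(value + 1) scale (limma adjusted p = 0.0471). Zfp97 had 10.2, 32.3 and 36.1 in KO, against 56.7, 68.9 and 53.7 in WT, with a peak in every library and a limma adjusted p of 0.0628. At these 3 promoters, picked after their values were seen, all 3 KO and all 3 WT H3K27ac libraries held a peak. The KO and WT values of H3K9me3, which came from other animals, overlapped at none of them. Zfp951 had 33.1, 19.6 and 42.9 in KO, against 78.0, 62.3 and 56.6 in WT (limma adjusted p = 0.0586), with peaks in replicates 1 and 2 of each genotype. At the Zfp872 promoter the values were 30.6, 19.6 and 42.0 in KO, against 78.0, 100.1 and 124.7 in WT, a log2 change of -1.72 ± 0.37 (limma adjusted p = 0.0471). That window had a peak only in KO replicate 2. Of the 34 windows, 31 lay in regions listed as lower and 3 as higher, 10 had peaks in KO libraries only and 2 in WT libraries only. Smarca5 and Bod1 were chosen after their values were seen. The promoter of Smarca5, which encodes the motor of a chromatin remodeller, had 25.5, 23.1 and 37.0 in KO, against 56.7, 77.9 and 56.6 in WT (limma adjusted p = 0.0499). Bod1, needed for chromosome alignment in mitosis, was a promoter listed as higher, with 157.9, 106.4 and 98.3 in KO, against 24.8, 57.4 and 66.7 in WT (limma adjusted p = 0.0508).

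The libraries differed in ways that touch these counts. Autosomal H3K27ac peak lists held 25880, 41705 and 11252 peaks in KO and 31354, 36516 and 12111 in WT, so replicate 3 of each genotype had the short list. WT replicate 3 also stood apart on the X chromosome, where it held a peak at 161 listed H3K9me3 regions, against 13 to 41 in the other 5 libraries, and the part of this in the results was not tested. Promoters of 27025 genes, widened by 1 kb on each side, held a peak for 9523, 9914 and 4287 genes in KO and 9926, 9835 and 4682 in WT. Of 9 neural progenitor markers with a window, 8 had a peak in at least 1 library, with 2 to 5 in a single library and 1 in all 6. Each of 3 astrocyte markers with a window also had a peak in at least 1 library. But of 7 ganglionic eminence markers 6 had none (Dlx2, Gad1, Gad2, Gsx2, Lhx6 and Nkx2-1), and the 6 cortical excitatory markers had none. No postmitotic neuron, oligodendrocyte or vascular marker with a window had a peak, and 3 of 4 microglia and blood markers had none. Of all 27025 genes, 15436 had none. At these markers the peak lists did not show the tissue of origin that the labels give. No marker gene of any list fell in a region with both marks. For H3K9me3 the table joins 3 KO and 3 WT values in 1 cell without naming the animals. Reads in listed regions, recovered from the steps between values, were 11.01 to 36.4 M (M for mega) in KO and 15.9 to 28.4 M in WT, and outside regions with a mean of 10000 or more they were 0.910 to 6.00 M in KO and 2.24 to 5.65 M in WT.

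Most regions with both marks had less H3K9me3 in KO. By the authors' deposited table, 896 of the 1006 were lower in KO and 110 higher (adjusted p at most 0.05), which is 89.1% lower, against 70.5% lower and 29.4% higher over all listed autosomal regions. The median log2 fold change in the authors' deposited table was -1.19 for the members and -0.95 for all listed autosomal regions. A median member had 30.6, 36.2 and 68.9 normalised reads in KO, against 94.0, 119.8 and 104.4 in WT. KO and WT values did not overlap, with KO lower, at 597 members (59.3%), against 54.9% of autosomal regions, and with KO higher at 38 (against 20.7%). In pooled nuclei, fewer cells with the mark and less of it per cell cannot be told apart, and the authors had picked the rows from these same libraries. limma on log2(value + 1), fitted over all 50654 rows, called 277 members lower (27.5%, against 15.2% of autosomal regions) and 1 higher (0.0994%, against 1.3%). Leaving out 1 value at a time moved the limma count of lower members to 720 without the third KO value and to 0 without any of the other 5 (399 to 582 at an unadjusted p of 0.05 or less), and every limma call given here for a single region shares that limit. limma-voom on the recovered reads called 707 lower (70.3%, against 58.4%) and 25 higher (2.49%, against 14.4%). With median-ratio scaling, which raises the median log2 fold change of all rows by 0.81, 115 members were lower (11.4%, against 6.15%) and 88 higher (8.75%, against 28.6%). Limma calls given for single regions use the authors' scaling. Under median-ratio scaling Peg3, Impact, Zrsr1, Dazl, Tdrd1, Vmn2r29, Sox6, Lhfpl2, Muc19 and the Zfp872 promoter missed the threshold (limma adjusted p 0.0525 to 0.497). Peg13, Nlgn1, Ptprm, Zfp68, Zfp442, BC024063, the Zfp872 body, Pcdhga4, Pcdhga10 and Pcdhga12 still passed it (limma adjusted p 0.0116 to 0.0439).

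The share of regions that carried H3K27ac was larger where H3K9me3 was lower in KO. It was 2.65% of regions listed as lower and 0.779% of those listed as higher. Members were longer than other regions (median 1900 bp, against 1400 bp), and the shares were therefore also set per length. There were 15.2 members per Mb of lower regions and 5.16 per Mb of higher regions. Among regions of 1000 bp, the shortest, 1.46% of the lower and 0.349% of the higher held a peak, and over 2 kb up to 3 kb the shares were 4.27% and 1.81%. Over 3 kb up to 5 kb they were 5.57% and 5.07%, and over 5 kb 12.7% and 13.7%, so the gap lay in the regions of up to 3 kb. Peaks lay well within their regions, with summits inside for 84.6% to 92.3% of region and peak pairs in KO and 84.5% to 92.7% in WT. The median overlap covered 14.1% of a member's length. By the authors' annotation, 8.97% of regions in proximal promoters and 10.5% of those in subtelomeres held a peak, against 3.08% in gene bodies and 0.854% in gene deserts.

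Members numbered 409, 668 and 318 in the KO libraries, against 269, 371 and 276 in the WT libraries, and these ranges overlapped. As a share of each library's own autosomal peaks, those over regions listed as lower were 1.85%, 1.89% and 3.20% in KO, against 1.03%, 1.11% and 2.43% in WT. The groups overlapped, since WT replicate 3 lay above KO replicates 1 and 2. The means were 2.31% ± 0.77 in KO and 1.52% ± 0.79 in WT (SD, n = 3 each), and the difference of 0.792 percentage points was within that spread (two-sided exact permutation test, p = 0.3, where 3 against 3 cannot go below 0.1). In both genotypes replicate 3 was the highest library. Within the title numbers the shares were 1.85% in KO and 1.03% in WT for replicate 1, and 2.55% in KO and 1.77% in WT for replicates 2 and 3 (means of 2 libraries each), so the difference had the same sign and about the same size in both. Permuting libraries within the numbers gave p = 0.333 (exact permutation test), where the smallest this allows is 0.167. Without WT replicate 3, the library that stood apart on the X chromosome, the difference was 1.25 percentage points with no overlap, at p = 0.1 in the exact permutation test, the smallest this smaller design allows. Restricted to regions called lower by limma, the shares were 0.568%, 0.662% and 0.560% in KO, against 0.210%, 0.205% and 0.272% in WT. Here every KO library was above every WT library (exact permutation p = 0.1, the smallest possible), with means of 0.597% ± 0.057 in KO and 0.229% ± 0.037 in WT (SD, n = 3 each). With lists cut to the 10000 strongest peaks of each library the shares over regions listed as lower were 2.3%, 2.65% and 3.36% in KO, against 1.81%, 1.99% and 2.77% in WT, and the groups overlapped again (exact permutation p = 0.3).

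Over regions listed as higher the shares were 0.12%, 0.151% and 0.427% in KO, against 0.115%, 0.164% and 0.495% in WT. The groups overlapped throughout, with means of 0.232% ± 0.169 in KO and 0.258% ± 0.207 in WT (SD, n = 3 each; exact permutation p = 0.7). The sign of this small difference turned with the library left out.

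**Figure D1:**
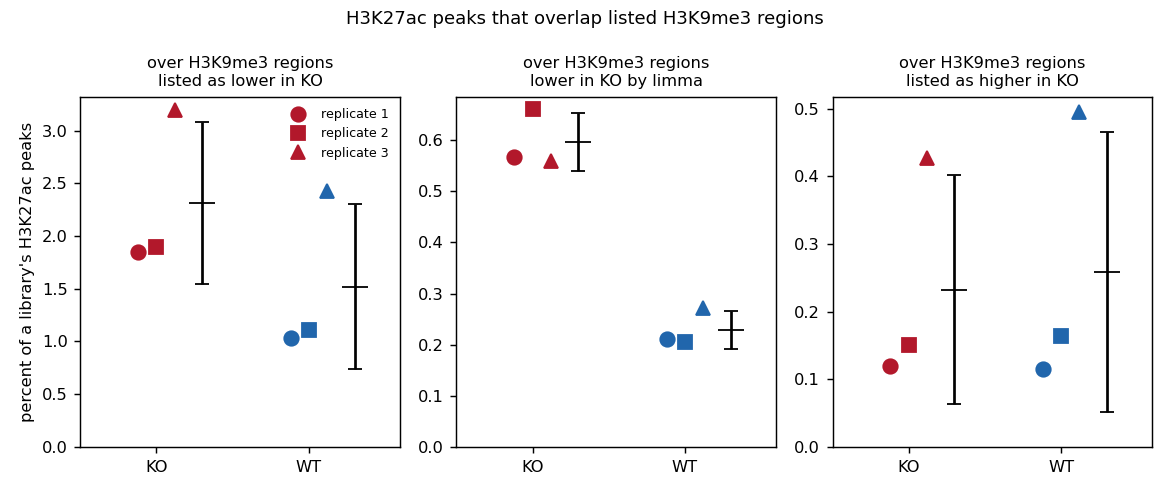
Percent of each library's autosomal H3K27ac peaks (y axis) that overlap H3K9me3 regions listed as lower in KO (left), called lower by limma (middle) or listed as higher (right), for 3 KO and 3 WT libraries. Symbols give replicates and the black bars the mean ± SD; in the middle plot KO libraries sit at 0.560% to 0.662% and WT libraries at 0.205% to 0.272%, while in the other plots the groups overlap.

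Counted by library, 479 members had peaks in KO libraries only, 123 in WT libraries only and 404 in both genotypes. H3K9me3 was listed as lower at 457 of the 479 KO-only members (95.4%), at 348 of the 404 shared ones (86.1%) and at 91 of the 123 WT-only ones (74.0%), against 70.1% of autosomal regions with no H3K27ac peak. The median log2 fold change in the authors' deposited table was -1.38, -0.93 and -0.72 in these 3 classes, against -0.94 for regions with no peak. limma called 38.8% of the KO-only members lower, 17.3% of the shared and 17.1% of the WT-only, against 15.0% of regions with no peak. Many members rested on few libraries, since 502 had a peak in a single library, 184 in 2 and 107 in all 6. Members seen in 1 library alone numbered 106, 253 and 29 for KO and 36, 47 and 31 for WT. KO replicates 1 and 2 therefore gave most of the KO-only class, and the share of such members listed as lower was 97.2%, 95.7% and 82.8% in KO, against 83.3%, 78.7% and 61.3% in WT.

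**Figure D2:**
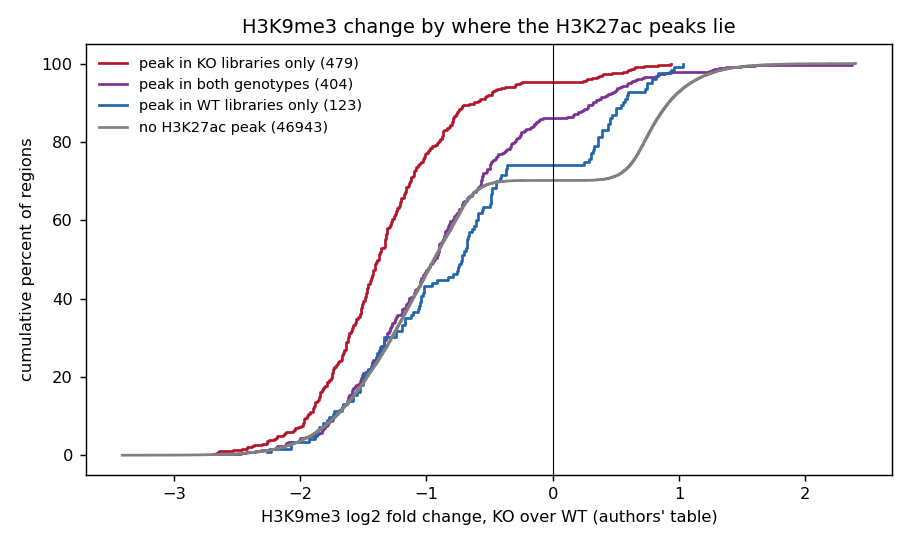
Cumulative percent of regions (y axis) by the H3K9me3 log2 fold change, KO over WT, of the authors' deposited table (x axis), for members with H3K27ac peaks in KO libraries only (479), in both genotypes (404) or in WT libraries only (123), and for regions with no peak (46943). The KO-only curve lies furthest left, with a median of -1.38; the flat stretch around 0 is where the authors listed few regions.

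**Figure D3:**
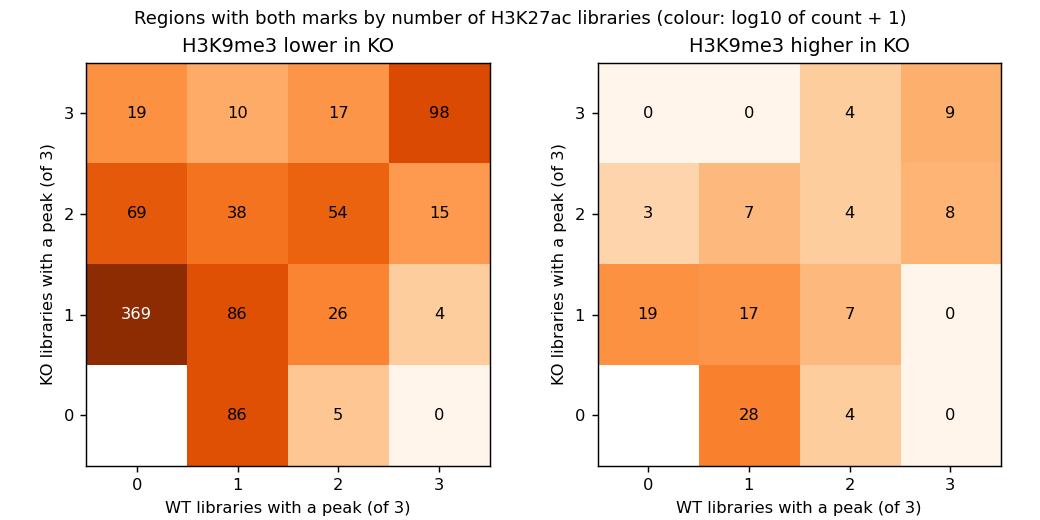
Number of members by how many KO libraries (y axis) and WT libraries (x axis) held an H3K27ac peak, for regions with H3K9me3 lower (left) and higher (right) in KO; colour is log10 of the count + 1. A peak in 3 KO and 0 WT libraries was found at 19 lower and 0 higher regions, and a peak in 0 KO and 3 WT libraries at 0 regions of either kind.

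All 3 KO libraries and no WT library held a peak at 19 members (1.89% of the 1006), and H3K9me3 was listed as lower in KO at all 19, where the authors' deposited table gave a median log2 fold change of -1.68. The converse, peaks in all 3 WT libraries and no KO library, was found at 0 members. Among the listed regions only the peaks chose these 19, but the authors had picked the listed regions from the same H3K9me3 libraries. limma called 12 of them lower and limma-voom 18, and KO values lay below WT values with no overlap at 18, against 15.2%, 58.4% and 54.9% of all listed autosomal regions. The count of 19 depended on thresholds, since it was 2 with a stricter peak cut (-log10 q of 5 or more), 4 with lists of 10000 peaks, 38 without KO replicate 1 and 72 without KO replicate 3. Genes were assigned to 9 of the 19 by the authors' table, and the other 10 were intergenic. The 12 members that lead by limma p were taken by rule, and Map3k4, Mir5098 and Rps4l were added after their values were seen.

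Of the 9, 3 were γ-protocadherin genes, whose cell adhesion proteins give single neurons their surface identity. The region at Pcdhga4 (chr18:37668201-37705700), 1 of the longest of all members, had 329, 327 and 895 normalised reads in KO, against 1859.6, 2609.8 and 2564 in WT. At Pcdhga10 (chr18:37735401-37759800) the values were 199, 208 and 529 in KO, against 1413, 2207 and 2249 in WT. Pcdhga12 (chr18:37765601-37767700) had 30.6, 28.8 and 47.1 in KO, against 88.6, 229.65 and 266 in WT. Every KO value was under every WT value at all 3, with changes of -2.33 ± 0.40, -2.77 ± 0.40 and -2.31 ± 0.44 (SE) on the log2(value + 1) scale and a limma adjusted p of 0.0471 each. Of 82 listed regions assigned to clustered protocadherins, 7 held H3K27ac (8.54%), against 2.1% of all listed autosomal regions. Several of the 7 are long, and of all lower regions over 5 kb 12.7% held a peak. All 7 lay in the γ cluster between 36 and 38 Mb of chromosome 18, and the authors' deposited table put their median log2 fold change at -2.46. All were called lower by limma and by limma-voom, against 27.5% and 70.3% of all members and 15.2% and 58.4% of all listed autosomal regions. Peaks were in KO libraries only at 5 of the 7 and in equal numbers of KO and WT libraries at the other two. The member at Pcdhgb4 (chr18:37714601-37724600), had peaks in all 6 libraries, with H3K9me3 of 68.8, 98.1 and 239 in KO, against 512, 873 and 863 in WT. The 7 are neighbours in 1 array of similar genes, are not independent of each other, and reads from near-identical exons could have been placed on the wrong member.

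The other 6 genes with peaks in 3 KO and 0 WT libraries lay on 5 chromosomes. A region in the body of Zfp872 (chr9:22198201-22202100), beyond the promoter shown above, had 40.8, 43.2 and 145 in KO, against 214.5, 288 and 341 in WT (limma adjusted p = 0.0471, a log2 change of -2.10 ± 0.47). Lhfpl2, a tetraspan membrane protein gene, had 22.9, 41.0 and 95.8 in KO, against 151, 168 and 136 in WT (chr13:94116101-94119700, limma adjusted p = 0.0480). The region at 3300002I08Rik (chr2:150349101-150360600) had 125, 90.7 and 306 in KO, against 645, 705 and 671 in WT. KO and WT values were apart at each of these 3 regions. Rps4l, a ribosomal protein gene, had the region at its start site (chr6:148354101-148355300, 44 bp from the start by the authors' annotation). It held 15.3, 12.2 and 34.5 in KO, against 44.3, 47.6 and 52.9 in WT, which missed the limma threshold (adjusted p = 0.0596). At Map3k4 (chr17:12245301-12246600), a stress kinase gene, the values were 33.1, 15.3 and 39.5 in KO, against 53.2, 70.5 and 51.5 in WT (limma adjusted p = 0.0688). The region at Mir5098 (chr17:28258601-28260600) had 0, 20.9 and 45.4 in KO, against 79.8, 151.7 and 111.7 in WT (limma adjusted p = 0.0585).

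**Figure D4:**
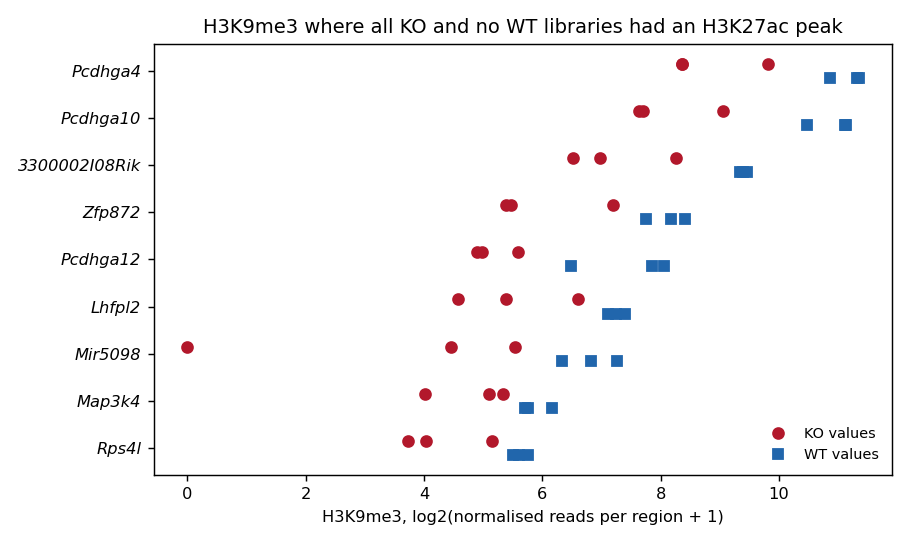
H3K9me3 as log2(normalised reads per region + 1) (x axis) at the 9 regions with a gene (y axis) where all 3 KO libraries and no WT library held an H3K27ac peak. Circles are the 3 KO values and squares the 3 WT values; at each of the 9 all KO values lie left of all WT values.

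Zinc finger genes named Zfp gave 16 members out of 362 listed regions (4.42%), in 13 genes. All 16 were listed as lower, and limma called 6 lower and limma-voom 13. Over all 1006 members 89.1% were listed as lower, 27.5% were called lower by limma and 70.3% by limma-voom, and of all listed autosomal regions 2.1% held a peak. Peaks were in more KO than WT libraries at 9, in more WT at 3 and in equal numbers at 4. The steepest fall was at Zfp68 (chr5:138603901-138614300), with 58.6, 61.5 and 338 in KO, against 665, 1190.1 and 1099.8 in WT (a log2 change of -3.14 ± 0.61, limma adjusted p = 0.0471), where the acetylation was a single peak in KO replicate 1. Zfp442 had 35.7, 22.7 and 64.7 in KO, against 121, 204 and 157 in WT (limma adjusted p = 0.0471), with peaks in KO replicates 1 and 2. Zfp445, which encodes a protein that guards imprinted loci and was chosen after its values were seen, carried both marks at its promoter. Its H3K9me3 was 7.64, 13.5 and 38.7 in KO, against 39.0, 86.1 and 45.7 in WT, which missed the limma threshold (adjusted p = 0.0624). Members of this family share near-identical stretches, so the assignment of reads to single genes is uncertain.

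Imprinted genes gave 7 members out of 68 listed regions (10.3%), namely Copg2, Impact, Nap1l5, Ndn, Peg13, Peg3 and Zrsr1. Control regions of imprinted genes are known to carry H3K9me3 on the DNA-methylated silent copy and active marks on the other. All 7 were listed as lower in KO, limma called 4 lower and limma-voom 5, against the same shares over all members (89.1%, 27.5% and 70.3%), and 2.1% of all listed autosomal regions held a peak. Peaks were in equal numbers of KO and WT libraries at 5 and in KO only at 2. Peg3, a zinc finger gene expressed from the paternal copy, had 30.6, 81.5 and 73.1 in KO, against 147, 143 and 166 in WT at chr7:6728101-6731200 (a log2 change of -1.40 ± 0.38, limma adjusted p = 0.0482). Impact, a regulator of translation that is also paternally expressed, had 38.2, 20.9 and 30.3 in KO, against 83.3, 129.6 and 87.0 in WT at chr18:12972701-12974800 (a log2 change of -1.72 ± 0.35, limma adjusted p = 0.0471). Both held H3K27ac in replicates 1 and 2 of each genotype and in neither replicate 3. KO and WT values were apart at both genes. Zrsr1, a retrocopied splicing factor gene, had 35.7, 25.7 and 56.3 in KO, against 101.0, 100.9 and 76.9 in WT (limma adjusted p = 0.0483), with peaks in replicate 2 of each genotype. Peg13, a noncoding RNA, had 17.8, 22.7 and 26.1 in KO, against 69.1, 97.6 and 81.9 in WT (limma adjusted p = 0.0471), with a peak in KO replicate 1 alone. Copg2, chosen after its values were seen, had peaks in all 6 libraries, and its H3K9me3 overlapped between the groups, with 53.5, 41.9 and 115 in KO, against 79.8, 172 and 73.2 in WT.

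The remaining lists gave few members. For comparison, 2.1% of all listed autosomal regions held a peak. Of all members 89.1% were listed as lower and 27.5% were called lower by limma. Over all listed autosomal regions these shares were 70.5% and 15.2%. Germline genes gave 2 of 34 listed regions (5.88%), both called lower by limma. Dazl, an RNA-binding protein gene of germ cells, had 5.09, 12.6 and 20.2 in KO, against 37.2, 54.1 and 66.0 in WT at its proximal promoter (chr17:50292901-50293900, limma adjusted p = 0.0489), with a peak in KO replicate 2 only. Tdrd1, of the piRNA pathway, had 71.3, 62.8 and 129 in KO, against 359.9, 253 and 196 in WT (limma adjusted p = 0.0471), with peaks in replicates 1 and 2 of each genotype. Neither gene's values overlapped between the groups. Chemosensory receptors gave 2 of 541 listed regions (0.370%), both at Vmn2r29, a vomeronasal receptor gene. The region at its start site had peaks in all 6 libraries and H3K9me3 of 86.6, 54.5 and 54.6 in KO, against 213, 118 and 141 in WT (limma adjusted p = 0.0475). The promoter window inside that region held a peak only in replicate 1 of each genotype. Synapse and axon genes gave 5 of 554 (0.903%), in Csmd1, Dlgap2, Nlgn1 and Slit3, all listed as lower and 1 called lower by limma. That 1 was in Nlgn1, a postsynaptic adhesion protein gene, with peaks in all 6 libraries and 7.64, 13.1 and 47.9 in KO, against 70.9, 82.0 and 67.4 in WT (limma adjusted p = 0.0495). Interneuron and ganglionic eminence genes gave 2 of 61 (3.28%). Sox6, a transcription factor gene of interneurons, had 7.64, 25.7 and 34.5 in KO, against 55.0, 104.2 and 67.4 in WT (limma adjusted p = 0.0496), and Npas3, another neural transcription factor gene, had 40.8, 48.0 and 95.8 in KO, against 21.3, 38.6 and 63.1 in WT (limma adjusted p = 0.243). Each had a peak in 1 KO library. Under median-ratio scaling Npas3 passed the threshold as higher (log2 change 1.41, limma adjusted p = 0.0227). Neural progenitor genes gave 0 of 10. Of 16 regions assigned to SETDB1 silencing machinery, 1 carried both marks, at Atf7ip, which encodes the binding partner that stabilises SETDB1, and it missed the limma threshold (adjusted p = 0.0821).

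The 107 members with peaks in all 6 libraries were set apart by their H3K9me3 level. Their median was 311 normalised reads per kb (mean of the 6 values), against 33.3 for members with a peak in a single library and 31.5 for all listed autosomal regions. Above 200 normalised reads per kb, 99 of 125 autosomal regions (79.2%) held an H3K27ac peak, against 1.44% of those at 50 or less. Among those 99, 83 were listed as lower and 16 as higher, the median log2 fold change in the authors' deposited table was -0.64, and limma called 6 lower and 0 higher, while limma-voom called 39 lower and 1 higher. The 5 members with the highest mean, among them chr2:98661301-98668300, chr9:2999101-3039600 and chr14:19414801-19420500, had peaks in all 6 libraries, and the authors' deposited table put their log2 fold changes at -0.08 to -0.19. Satellites and other multicopy repeats are known to gather reads of any mark at few places of a genome build, and the part of such read pile-up in the overlap of marks was not tested. Without these 99, a limit of 200 per kb chosen after seeing the data, 907 members remained, of which 813 were listed as lower (89.6%). The shares of peaks over regions listed as lower were then 1.62% ± 0.23 in KO and 0.875% ± 0.33 in WT (SD, n = 3 each), with no overlap between the groups (exact permutation p = 0.1, the smallest possible).

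**Figure D5:**
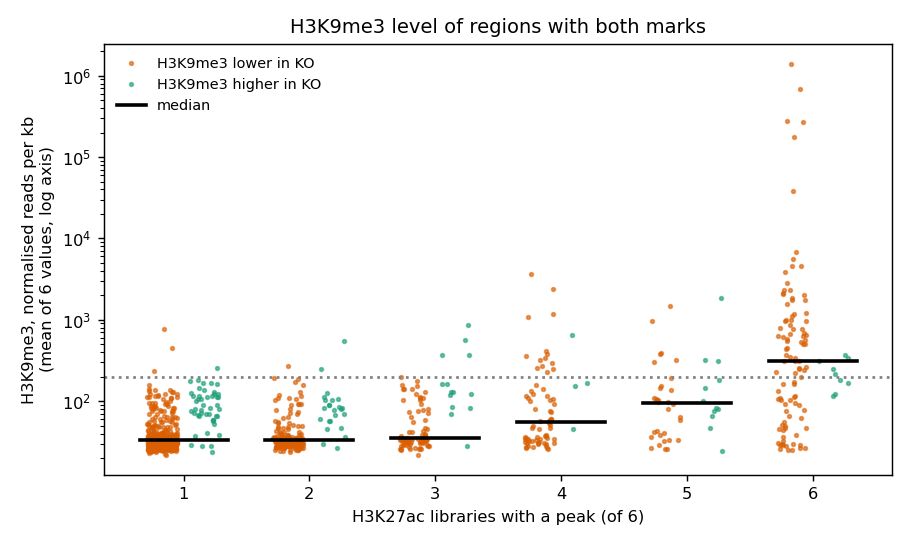
H3K9me3 level of each member in normalised reads per kb (y axis, log scale, mean of 6 values) by the number of H3K27ac libraries with a peak (x axis). Points left of each tick are regions with H3K9me3 lower in KO and points right of it higher; black bars are medians, 33.3 at 1 library and 311 at 6, and the dotted line is 200 per kb.

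A pair of multicopy genes had some of the longest overlaps. Dux, whose product switches on genes of the early cleavage embryo and which lies in a tandem array, had 3505, 2966 and 4086 in KO, against 5569.8, 6943 and 6596 in WT (chr10:58220101-58240600), with acetylation in every library. The groups were apart, yet the log2 change of -0.86 ± 0.27 missed the limma threshold (adjusted p = 0.0516), and it was -0.03 under median-ratio scaling. Rn45s, the ribosomal RNA precursor, had 13463, 26687 and 21441 in KO, against 34541, 33590 and 78336 in WT (limma adjusted p = 0.0753). Among members with peaks in all 6 libraries that were called lower by limma, Muc19, a mucin gene, had 283, 245 and 300.04 in KO, against 606, 954 and 1119 in WT, and Ptprm, a receptor phosphatase gene, had 91.7, 102 and 196 in KO, against 370.5, 385 and 426 in WT (adjusted p = 0.0471 each). Of all 107 members with peaks in all 6 libraries, limma called 17 lower (15.9%), against 15.2% of all listed autosomal regions. KO and WT values did not overlap, with KO lower, at 43.0% of the 107, against 54.9% of all listed autosomal regions.

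Members fell in 551 of the 1221 blocks of 2 Mb that held a listed region, and 331 of the 551 held a single member. The block at 20 to 22 Mb of chromosome 8 held 33, of which 32 were listed as higher, and its neighbour at 18 to 20 Mb held 10, of which 9 were higher. In all, 6 blocks with 5 or more higher members held 67 of the 110 higher members (60.9%). These 6 blocks were picked by their count of higher members, so their large share of those members follows in part from the pick. They held 496 of all 14115 listed higher regions (3.51%) and 629 of all listed autosomal regions (1.31%). Of those 629 regions, with or without a peak, the same 496 were listed as higher. At 146 to 148 Mb of chromosome 4, a cluster of zinc finger genes that includes Zfp600 and Rex2, 27 of 28 members were listed as lower, where the authors' deposited table gave a median log2 fold change of -0.48. There the peaks were in 3, 3 and 15 members in the KO libraries, against 0, 11 and 12 in the WT libraries. The block at 46 to 48 Mb of chromosome 6, which includes Zfp398, held 15 members, all listed as lower. Over all listed autosomal regions 70.5% were lower and 29.4% higher. Shares over all listed regions of a single block are not given, so whether members differ from their block was not tested. The single member called higher by limma was intergenic (chr6:147235801-147237800, chosen after its value was seen), with 950.2, 256 and 320.2 in KO, against 67.4, 24.6 and 204 in WT.

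The rule had a threshold of 1 bp. The members just inside it, overlapped by 6 to 9 bp, lay at Rtn1, Myo3b, E030044B06Rik, Csmd1 and an intergenic place on chromosome 4. The regions just outside it lay 0 to 8 bp from a peak, 2 of them in Inpp5d and Fam110b. Asking that the summit lie in the region left 897 members, and asking for 50% of the peak left 889.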

How the data were processed

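H3K9me3 came as a single table of regions that the authors selected, built from windows and annotated with genes on mm10. Values per genotype are a normalised signal by the authors' own scaling, per the file headers. Also given are the authors' ratio of enrichment, log2 fold change, p-value and adjusted p-value, per the file headers. Listed values per library are not tied to animals, and the KO and WT cells are told apart by the order of genotypes in the file's title. H3K27ac came as 1 MACS2 peak list per library, aligned with Bowtie2 2.3.4.3, per the submitters' processing notes. The score, fold ratio and -log10 q of each peak are the authors', per the labels, and were used for ranking and filtering inside a list alone.

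Members were taken by interval overlap. limma 3.58.1 (R 4.3.3) was fitted to log2(value + 1) with a mean-variance trend over all 50654 rows, with Benjamini-Hochberg adjustment and a threshold of 0.05. The pseudocount shrinks changes of low regions, yet a listed value near 0 can make the mean of logs change more than the authors' ratio of means (at Mir5098 -3.47, against -2.37 in the authors' deposited table). Since the authors chose the rows from these libraries, the limma p-values depend on that selection. limma-voom used reads recovered from the step between values (100% whole within 0.1). Both scripts were tested on simulated data. Shares of peaks were compared with exact two-sided permutation tests over libraries. For H3K27ac the depth is unknown. Replicate numbers follow accession order. Named regions followed a rule: up to 12 with peaks in 3 KO and 0 WT libraries, the 8 lower and 8 higher with peaks in all 6, the 5 largest and smallest, the 5 longest and shortest overlaps, the 5 nearest outside, and up to 4 per gene list, by limma p. Members, lists and rule were chosen with earlier results of these data known. Sequence was available for promoter windows, and peak summits were not analysed for sequence. Alternatives covered scaling, pseudocount, filters, overlap, peak thresholds, left-out libraries and a block by title number.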

Additional observations from a re-analysis of the deposited data

How the results depend on the processing

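The H3K27ac title numbers, shared across genotypes and coinciding with sex, were used as a replicate block chosen after seeing the data. The share of peaks over regions listed as lower still differed by 0.792 points (exact permutation within blocks, p = 0.333), and over those listed as higher by -0.0257 (p = 0.667), where the smallest possible is 0.167. The listed H3K9me3 values are not tied to animals, and no block could be fitted there. For that mark the title number also coincided with genotype in all animals but replicate 1 of each genotype. The part of title number in the H3K9me3 differences was not tested. The count of 1006 regions was 641 with peaks at a -log10 q of 5 or more and 472 with the 10000 strongest peaks per library, and stayed within 1.5 times under the other alternatives, from 753 to 977 with 1 library left out. The count with peaks in 3 KO and 0 WT libraries, 19, was 2 and 4 under those same settings, 19 to 72 with 1 library left out and 77 without replicate 3 of each genotype, which was chosen after seeing the data. The converse count, 0, was 1 to 5 with 1 library left out and 5 without replicate 3 of each genotype.

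Regions called lower in KO by limma, 277, numbered 489 with a pseudocount of 5, 115 with median-ratio scaling, 707 with limma-voom, 0 without the trend (583 at an unadjusted p of 0.05 or less), 896 by the authors' adjusted p at 0.05 and 872 at 0.001, and 0 to 720 with 1 listed value left out. Regions called higher, 1, numbered 0 with a pseudocount of 0.5, 6 with a pseudocount of 5, 88, 25 and 0 under those same 3 fits, 110 and 91 by the authors' p, and 0 to 2 with 1 value left out. The cause was not tested.

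The share of peaks over regions listed as lower was higher in KO under every alternative run, by 0.349 to 1.25 percentage points with 1 library left out. Over regions listed as higher the difference was -0.0257 points and turned positive in regions that pass limma (9.65e-05) and without KO replicate 1 (0.0306), KO replicate 2 (0.0150) or WT replicate 3 (0.0929), ranging from -0.123 to 0.0929 with 1 library left out. Peak lists of 11252 and 12111 in replicate 3 limit what a missing peak there can show, and the first listed KO value, with 0.910 M reads outside the strongest regions, is the least precise.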

Other observations

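Outside chromosomes 1 to 19, 225 further listed regions held an H3K27ac peak. On the X chromosome 182 of 2039 listed regions did (8.93%), of which 178 were listed as lower in KO. Of all listed autosomal regions 70.5% were listed as lower, and the share over all listed X regions is not given here. All 3 KO animals of the H3K9me3 set were male and 2 of 3 WT animals female. Sex and genotype therefore cannot be told apart for these X values. By library the X regions with a peak numbered 17, 36 and 33 in KO, against 13, 41 and 161 in WT, so WT replicate 3 stood apart. Why it did was not tested. On the Y chromosome 15 of 235 listed regions held a peak, and on unplaced sequence 28 of 431.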
